A study of Mus musculus with 8 samples.

Results

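A set of 7 transcripts encoded outside chromosome 17, the chromosome that carries Tsc2, differed strongly between Tsc2 wt/wt controls and Tsc2 mut/mut mice in single nuclei RNA sequencing of the ventricular-subventricular zone (V-SVZ), the neural stem cell niche along the lateral ventricles. They are Gm10801, Gm10800, Gm45890, Olah, Mmel1, Olfr287 and Tmem117, and they are 7 of the 32285 features in the count matrices. They were chosen by name from earlier results of these same data because their levels differed between the genotypes. Their genotype differences are therefore described here and not tested. All 7 symbols matched 1 feature each, and GENCODE M21 places them on 4 chromosomes of GRCm38.

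The study deleted Tsc2, which encodes the tuberin subunit of a complex that restrains mTORC1, in neural stem cells (NSCs) to model the brain lesions of tuberous sclerosis complex. The libraries came from 8 mice at postnatal day 90, 4 Tsc2 wt/wt controls and 4 Tsc2 mut/mut mice in which both conditional alleles were to be recombined by Cre, with 1 library per mouse. All mice carried the Cre-dependent reporter Gt(ROSA)26Sortm9(CAG-tdTomato)Hze, kept on a B6.Cg stock, and tdTomato-positive nuclei were sorted before 10x Genomics 3′ libraries were made. The conditional allele came from stock Tsc2tm1.1Mjg/J, and Cre was delivered in the study by neonatal electroporation or by a tamoxifen-inducible Nestin driver, Tg(Nes-cre/ERT2)KEisc on C57BL/6, with no source stating which served these mice or whether the groups were littermates. Strain of origin and Tsc2 genotype thus cannot be told apart, and no variant calls were used here.

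Each library held 60000 barcodes and between 11182335 and 36773832 UMIs. Barcodes with at least 300 genes are called nuclei here, and there were 1923 to 10153 per mouse. Barcodes with at least 100 and fewer than 200 genes are called low-count barcodes. They held 24415371 UMIs in controls and 41492458 in Tsc2 mut/mut mice, so raw UMI counts of the groups are not comparable. Barcodes under 100 genes numbered 39013, 3, 47889 and 32476 in Tsc2 wt/wt mice 1 to 4. In Tsc2 mut/mut mice 1 to 4 they numbered 0, 21383, 0 and 21. Fixed limits in genes thus cut the libraries at different points. The effect of depth on genotype levels was not tested. Levels are given as CPM, the UMIs of a gene per 1000000 UMIs of all genes in the same mouse and class of barcodes, and they are not scaled for gene length, so levels of different genes are not compared. Mitochondrial genes gave 48.0% to 49.8% of UMIs in low-count barcodes and 34.0% to 44.6% in nuclei, so both classes held RNA from outside the nucleus. Only 4.76% of the nuclei of Tsc2 mut/mut mouse 4 had under 20% mitochondrial UMIs, against 7.76% to 13.3% in the other mice. Any pair of libraries shared 917 to 1058 barcodes, and 1 to 15 among nuclei. Tsc2 itself did not separate the groups, at 12.7 ± 0.985 CPM (SD, n = 4) in nuclei of control mice and 11.5 ± 1.53 (n = 4) in those of Tsc2 mut/mut mice, but 3′ tags outside the deleted part do not check the deletion.

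Inbred mouse strains differ at many loci by base changes, insertions and copy number, and a transcript at such a locus can be abundant in one strain and nearly absent in another whatever engineered allele the animals carry. Satellite DNA, the tandem repeats found around centromeres, is a source of RNA whose short reads fit many places in the genome. The 7 genes include both gene models within satellite-like repeats and single genes with known or putative proteins.

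Gm10801 and Gm10800 are neighbouring gene models on chromosome 2, separated by 2463 bases, which lie on opposite strands. A stretch of each annotated transcript is shown because it makes the repeat visible. Capitals mark bases in runs of 20 bases that also occur in the transcript of the other gene. Gm10801 is shown for exon 1 of 4, chr2:98662237-98662522 on the plus strand, and Gm10800 for 300 bases of exon 4 of 5, chr2:98666741-98667040 on the minus strand, both from GRCm38 and GENCODE M21 and read 5′ to 3′.
Gm10801: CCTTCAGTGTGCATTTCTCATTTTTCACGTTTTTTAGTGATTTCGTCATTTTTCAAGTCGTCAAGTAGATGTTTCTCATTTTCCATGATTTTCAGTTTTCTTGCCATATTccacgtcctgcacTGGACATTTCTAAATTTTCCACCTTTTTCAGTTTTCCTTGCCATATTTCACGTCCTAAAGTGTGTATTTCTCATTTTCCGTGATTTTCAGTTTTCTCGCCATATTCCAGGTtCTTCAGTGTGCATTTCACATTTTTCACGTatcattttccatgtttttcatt
Gm10800: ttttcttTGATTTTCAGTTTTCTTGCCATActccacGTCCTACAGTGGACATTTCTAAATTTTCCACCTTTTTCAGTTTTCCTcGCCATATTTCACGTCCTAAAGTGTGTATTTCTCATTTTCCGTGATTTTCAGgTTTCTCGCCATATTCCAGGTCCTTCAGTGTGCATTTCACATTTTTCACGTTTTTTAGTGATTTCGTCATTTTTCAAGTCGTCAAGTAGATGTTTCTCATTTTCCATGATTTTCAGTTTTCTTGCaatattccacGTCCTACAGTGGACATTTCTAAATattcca

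In these stretches 250 of 286 bases of Gm10801 and 269 of 300 bases of Gm10800 were shared with the other gene. The longest identical stretch was 86 bases, in the same orientation. Over the whole transcripts, 88.7% of the 504 bases of Gm10801 and 92.7% of the 660 bases of Gm10800 lay in 20-base runs found in other annotated genes, 13 other genes in each case. Within its own transcript, 94.1% of Gm10800 and 59.3% of Gm10801 fell in repeated 12-base words. Reads of the 2 gene models can therefore be exchanged or lost by the counter, and their values are treated as uncertain and not as 2 independent measurements.

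The other 5 genes are not of this kind, with 1 exception in sharing. Olfr287 had 79.3% of its longest transcript in 20-base runs found in 308 other genes, and no internal repeat. It overlapped on the same strand with Gm44579, a gene model that the files' features do not list. Of the runs of Olfr287, 51.6% also occur in Olfr288 and 30.4% in Olfr286, both in the files and in the same orientation. Reads of Olfr287 can therefore also be exchanged or lost by the counter, and its values are uncertain to that extent. Gm45890 had 27.8% of its bases in shared runs, with 4 other genes. The shares were 4.94% for Mmel1, 3.05% for Tmem117 and 1.13% for Olah. These last 3 shared little sequence with other annotated transcripts, and they have no other gene on their strand with counts in these libraries.

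In low-count barcodes of Tsc2 wt/wt mice 1 to 4, Gm10801 stood at 0.839, 0.443, 0 and 0.500 CPM, and in Tsc2 mut/mut mice 1 to 4 at 1.94, 1.97, 2.09 and 3.92. Every Tsc2 mut/mut mouse was above every Tsc2 wt/wt mouse. The means were 0.445 ± 0.345 and 2.48 ± 0.963 (SD, n = 4 each), a ratio of 5.57, from 12 and 109 UMIs in all. The library at 0, Tsc2 wt/wt mouse 3, was the shallowest in this class, and a count of 0 there allows up to 1.27 CPM, which is below the lowest Tsc2 mut/mut value. In nuclei the same order held, with 0.528, 0, 0 and 0.545 for Gm10801 in Tsc2 wt/wt mice and 1.71, 1.65, 2.41 and 2.70 in Tsc2 mut/mut mice. Intervals and limits of this kind cover counting error only.

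Gm10800 showed the same order of groups. Low-count values were 0.210, 0.532, 0 and 0.667 CPM in Tsc2 wt/wt mice 1 to 4 and 1.62, 1.53, 1.77 and 3.63 in Tsc2 mut/mut mice 1 to 4. The groups did not overlap, with means for Gm10800 of 0.352 ± 0.303 and 2.14 ± 1.00 (n = 4 each), a ratio of 6.07. In nuclei they were apart again, at 0.406 ± 0.411 and 1.56 ± 0.255 (n = 4 each). Tsc2 mut/mut mouse 4 was the highest of the 8 mice for both repeat models in both classes. The wider family of satellite-like gene models gave few UMIs. Of that family, 12 of 13 listed models are in the files, the 10 that are not Gm10800 or Gm10801 gave 30 UMIs in low-count barcodes of all mice, and none of the 10 had enough counts for a test. Their summed level was 0.0221 ± 0.0443 CPM in control and 0.649 ± 0.549 in Tsc2 mut/mut mice, and the groups overlapped because Tsc2 mut/mut mouse 2 had 0. In nuclei the sum was 0.291 ± 0.513 and 0.411 ± 0.194 CPM, from 18 UMIs, with Tsc2 wt/wt mouse 1 the highest of all at 1.06.

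Gm45890 is annotated as an antisense transcript at chr8:123948790-123958935 on the plus strand, where it overlaps Abcb10 by 6477 bases and Nup133 by 476 bases on the minus strand. On its own strand Gm20388, a gene model that the files' features do not list, spans all 10146 bases of Gm45890. Abcb10 encodes a mitochondrial ABC transporter and Nup133 a nuclear pore subunit. In low-count barcodes Gm45890 stood at 0.210, 0.266, 0 and 0.167 CPM in Tsc2 wt/wt mice 1 to 4 and at 3.96, 1.64, 1.77 and 1.74 in Tsc2 mut/mut mice 1 to 4. The groups were far apart, with means of 0.161 ± 0.114 and 2.28 ± 1.12 (n = 4 each), a ratio of 14.2 that rests on 5 UMIs in Tsc2 wt/wt mice and 99 in Tsc2 mut/mut mice. In nuclei Gm45890 did not separate the groups, at 3.17, 0.957, 1.07 and 1.27 in Tsc2 wt/wt mice and 2.42, 2.20, 2.41 and 1.04 in Tsc2 mut/mut mice. The overlapping genes on the other strand showed no such pattern in low-count barcodes, where Abcb10 stood at 16.6 ± 1.41 and 15.2 ± 2.14 and Nup133 at 2.18 ± 0.485 and 2.39 ± 0.629 (n = 4 each).

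Olah encodes oleoyl-ACP hydrolase, the thioesterase that releases medium-chain fatty acids from fatty acid synthase, and lies at chr2:3341982-3397210 on the minus strand. Its low-count values were 4.40, 6.56, 5.93 and 3.34 CPM in Tsc2 wt/wt mice 1 to 4, against 0.243, 0.328, 0.804 and 0.799 in Tsc2 mut/mut mice 1 to 4. The lowest control was thus well above the highest mutant, and the means for Olah were 5.06 ± 1.46 and 0.543 ± 0.30 (n = 4 each), a ratio of 9.30. In nuclei the values were 2.38, 3.08, 4.28 and 1.64 in Tsc2 wt/wt mice and 2.56, 2.20, 1.98 and 0.830 in Tsc2 mut/mut mice, and the groups overlapped. In CPM, Olah was thus lower in nuclei than in low-count barcodes in each of the 4 Tsc2 wt/wt mice. It was higher in nuclei in each of the 4 Tsc2 mut/mut mice, though in mouse 4 only at 0.830 beside 0.799. The other 11 genes of a list of acyl-thioesterases and fatty acid synthesis enzymes, Fasn among them, were all tested and none passed the genotype test in low-count barcodes, with a median log2 difference of -0.01 beside -0.01 over all genes tested. Their summed low-count level was nonetheless without overlap, at 217 ± 4.42 CPM in control and 204 ± 1.87 in Tsc2 mut/mut mice (n = 4 each), and so was Acot1, at 12.8 ± 1.20 and 8.27 ± 1.68. In nuclei both overlapped.

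Mmel1 encodes a membrane metallo-endopeptidase of the neprilysin family and lies at chr4:154869585-154895528 on the plus strand. It stood at 5.66, 7.26, 7.62 and 7.17 CPM in low-count barcodes of Tsc2 wt/wt mice 1 to 4 and at 2.43, 2.19, 1.93 and 1.67 in Tsc2 mut/mut mice 1 to 4. The spread of Mmel1 within each genotype was small beside the gap, with means of 6.93 ± 0.868 and 2.05 ± 0.327 (n = 4 each), a ratio of 3.37. In nuclei Mmel1 was at 3.17, 4.68, 2.94 and 2.91 against 0.853, 2.39, 2.06 and 1.45, lower on average in both groups but still without overlap. Of the other neprilysin family genes, out of 7 listed, Mme, Ece1 and Ece2 had enough low-count UMIs for a genotype test, and none of these 3 passed it. In nuclei Mme was without overlap in the direction opposite to Mmel1, at 1.12 ± 0.298 and 1.64 ± 0.288 CPM (n = 4 each). It had too few UMIs for a test there, 76 in all.

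Olfr287 is a gene of the olfactory receptor superfamily at chr15:98206971-98221056 on the minus strand. Its low-count values were 6.08, 4.96, 5.08 and 5.67 CPM in Tsc2 wt/wt mice 1 to 4 and 0.566, 0.219, 2.09 and 0.363 in Tsc2 mut/mut mice 1 to 4. The 4 controls were close together, 3 Tsc2 mut/mut mice were near 0, and Tsc2 mut/mut mouse 3 lay between. In nuclei the pattern of Olfr287 was the same, at 6.34, 5.21, 4.55 and 4.73 against 0.142, 0.183, 2.75 and 0.208. Group means were 5.45 ± 0.523 and 0.810 ± 0.866 in low-count barcodes and 5.21 ± 0.805 and 0.821 ± 1.29 in nuclei (n = 4 each). The log2 ratio of the Olfr287 means in nuclei was -2.66, and -4.87 without Tsc2 mut/mut mouse 3. The other olfactory receptor genes, out of 1135 in the files, summed to 12.3 ± 2.94 CPM in control and 12.2 ± 0.522 in Tsc2 mut/mut low-count barcodes. Only Olfr482 and Olfr57 of them had enough low-count UMIs for a test, and neither passed it. Olfr288, which shares sequence with Olfr287, stood in nuclei at 0.434 ± 0.365 and 0.0860 ± 0.172 CPM, from 16 UMIs, and the groups overlapped. Olfr1124 was without overlap in nuclei, at 0.875 ± 0.494 and 0.241 ± 0.129 CPM from 26 UMIs, too few for a test. In low-count barcodes Olfr1124 overlapped.

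Tmem117 encodes a multi-pass transmembrane protein and spans chr15:94629232-95096098 on the plus strand, 3.11 Mb before Olfr287. In low-count barcodes it was at 1.47, 1.68, 0.424 and 1.33 CPM in Tsc2 wt/wt mice 1 to 4 and at 4.45, 5.03, 5.95 and 3.34 in Tsc2 mut/mut mice 1 to 4. Again the groups did not overlap, with means for Tmem117 of 1.23 ± 0.555 and 4.69 ± 1.09 (n = 4 each), a ratio of 3.82. Nuclei held far more of it, 13.5, 11.8, 9.09 and 18.9 in Tsc2 wt/wt mice and 44.4, 26.8, 31.5 and 6.44 in Tsc2 mut/mut mice. Tsc2 mut/mut mouse 4 was the lowest of all 8 for Tmem117 in nuclei, so the groups overlapped there. The log2 ratio of the Tmem117 means was 1.03 with that mouse and 1.36 without it. In that mouse 28 of 4179 nuclei fell in the oligodendrocyte-like class that carries most Tmem117. The counts were 121 of 5525, 67 of 3394 and 213 of 10153 in Tsc2 mut/mut mice 1 to 3. In Tsc2 wt/wt mice 1 to 4 they were 35 of 1923, 134 of 7427, 25 of 2186 and 73 of 3094. In sums over a class of barcodes, fewer nuclei of a type and less RNA per nucleus cannot be told apart.

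**Figure D1:**
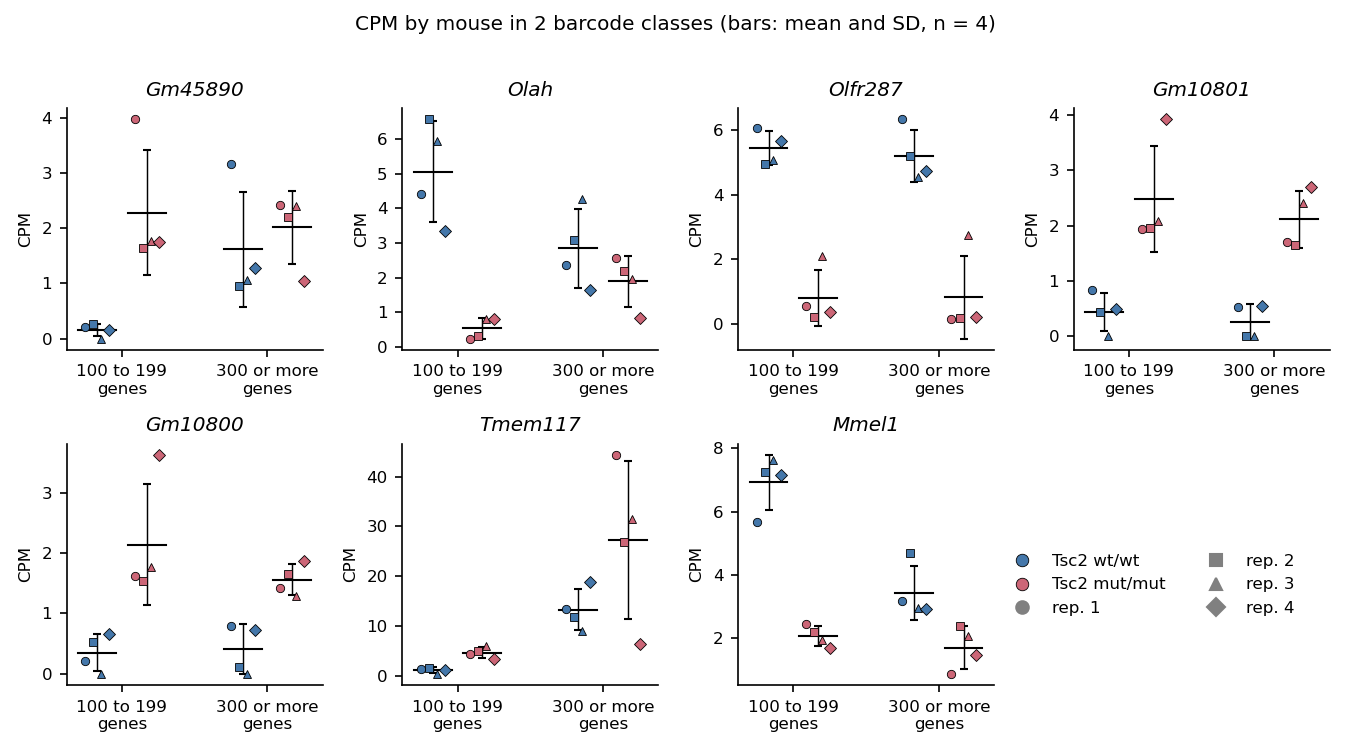
Each panel plots 1 gene in CPM (y axis, linear) for low-count barcodes and nuclei (x axis). Points are mice (blue Tsc2 wt/wt, red Tsc2 mut/mut, symbols give the replicate) and bars the mean and SD of 4 mice. All 7 genes separate the genotypes in low-count barcodes, while Gm45890, Olah and Tmem117 overlap in nuclei.

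All 7 genes thus had groups of mice that did not overlap in low-count barcodes, where 5.72% of the 11880 genes tested did so. In nuclei 4 genes were without overlap (Gm10801, Gm10800, Olfr287 and Mmel1), beside 2.16% of the 13060 genes tested. That set holds 5 of the 7, without Gm10801 and Gm10800. Since the genes were picked for this difference, neither count carries weight of its own. In a fit over all genes with edgeR, 0.227% of genes passed in low-count barcodes at an adjusted p under 0.05, namely 27 genes. Of these, 9 lie on chromosome 17, 7 are the genes described here and 11 lie elsewhere. The 7 were chosen for this same difference, so their passing is no test of it and nothing is read from it. The same limit holds for their results in the other genotype fits below. The fitted log2 differences of the 7 ran from -3.17 for Olah to 3.48 for Gm45890, and the smallest in size was -1.69 for Mmel1. Just outside, the largest of the 11 was Ramac at -1.15. Ordered by p, Gm10800 was the last gene off chromosome 17 to pass and Gm11681, at 1.12, was the next.

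In nuclei 0.0153% of genes passed, 2 genes on chromosome 17, and 0 of the 5 described genes that could be tested there passed by edgeR or DESeq2. At an unadjusted p under 0.05 there were 3 (Olfr287, Tmem117 and Mmel1), a count that the choice of the genes bears on and from which nothing is read. Gm10801 and Gm10800 had too few UMIs in nuclei for the test. Over all barcodes 7 genes passed, 0.0456% of 15360, and of the 7 described here, all tested, only Mmel1 was among them. In mitochondria-rich barcodes 43 genes passed, 0.419% of 10255, and Olfr287 and Mmel1, the 2 that could be tested, were not among them.

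Whether any of the genes marks genetic background was not tested, and the order of the mice is only described here. The low-count levels entered the choice of the genes. The direction was followed through 5 classes that share no barcodes, the low-count class, then classes starting at 200, 300 and 500 genes, and 1000 genes or more. The mean pointed the same way in all 5 classes for Olfr287, Gm10801, Gm10800, Tmem117 and Mmel1, and in 4 of 5 for Gm45890 and Olah. Olfr287 was without overlap in 5 of the 5 classes, Gm10801 in 4, Gm45890 in 3, Olah, Tmem117 and Mmel1 in 2, and Gm10800 in 1. The share of genes tested without overlap was 5.72%, 4.73%, 4.79%, 6.47% and 1.44% from the lowest class to the highest. The last 3 shares are over the 13060 genes tested in nuclei, which leave out Gm10801 and Gm10800. For Olfr287 the highest class rested on few UMIs, since Tsc2 wt/wt mouse 3 had 1 UMI there (1.23 CPM) and Tsc2 mut/mut mouse 3 had 3 (1.10 CPM). Gm10801 rested on low values too. In the class starting at 500 genes it was at 0 in all Tsc2 wt/wt mice and at 1.77 to 8.22 CPM in Tsc2 mut/mut mice. The sums there held 365121 to 1694779 UMIs per mouse, so a 0 does not show absence. In the class starting at 300 genes its highest Tsc2 wt/wt value was 0.708 CPM and its lowest Tsc2 mut/mut value 1.11.

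Tsc2 mut/mut mouse 3 stood between the groups for Olfr287 in each of the 5 classes. Its Olfr287 level was 2.09, 3.07, 3.35, 2.74 and 1.10 CPM from the lowest class to the highest, which is 38.4%, 45.4%, 61.0%, 41.3% and 31.1% of the Tsc2 wt/wt mean of the same class. Over all 60000 barcodes it was at 49.4% of that mean. For the other 6 genes in low-count barcodes its value lay within the range of the other Tsc2 mut/mut mice, apart from Olah, at 0.804 CPM beside 0.799 in the next Tsc2 mut/mut mouse, and Tmem117, at 5.95 the highest of all mice.

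**Figure D2:**
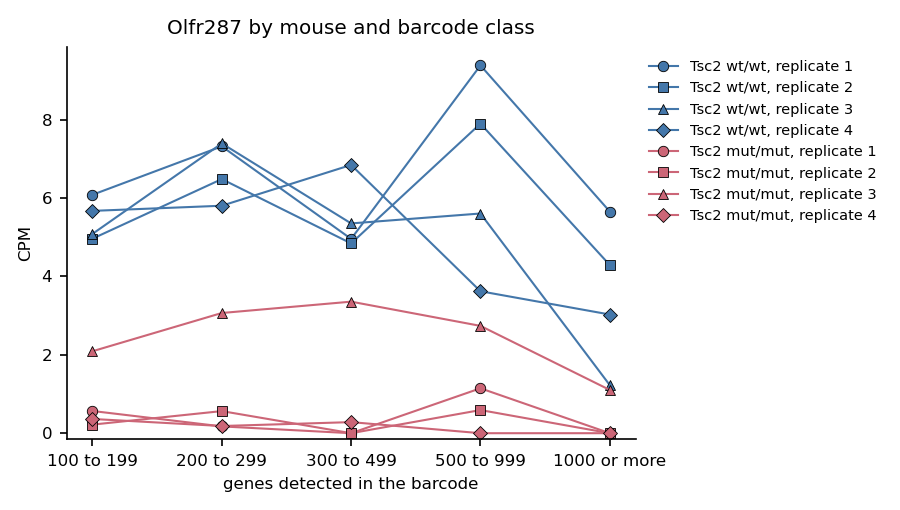
Olfr287 in CPM (y axis, linear) for each mouse in 5 classes of barcodes by genes detected (x axis), blue Tsc2 wt/wt and red Tsc2 mut/mut. The line of Tsc2 mut/mut mouse 3 runs from 2.09 to 1.10 through 3.35, between the other Tsc2 mut/mut mice and the controls, and in the highest class it is close to Tsc2 wt/wt mouse 3 at 1.23.

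Where in the preparation the transcripts sat was tested within mice, a contrast that was not itself used to choose the genes. Its low-count levels, however, also entered the genotype differences that did choose them. The adjusted p values of this contrast are therefore not independent of that choice. How far the choice shaped falls from low-count barcodes to nuclei was not tested. Nuclei were compared with low-count barcodes of the same 8 mice in edgeR with the mouse as a block, where 72.4% of 12189 genes passed. The common scaling matters here. In CPM the median gene was 0.64 higher (log2) in nuclei and after TMM scaling it was 0.05 higher, a shift of 0.59 between the scales, while the mitochondrial share was lower in nuclei as given above. The fitted values below are on the TMM scale and so relative to the typical gene. Of the 6 genes with enough UMIs, 4 passed and Gm10800 was filtered out.

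Tmem117 was higher in nuclei, by 2.08 on the log2 scale (SE 0.22, edgeR adjusted p = 1.74e-06), and it was higher in 8 of 8 mice, at 20.3 ± 13.0 against 2.96 ± 2.02 CPM (n = 8). Mmel1 fell by 1.29 (SE 0.20, adjusted p = 2.59e-05), from 4.49 ± 2.68 to 2.56 ± 1.17 CPM, and it was lower in 6 of 8 mice. These were 4 of 4 Tsc2 wt/wt mice, with means from 6.93 ± 0.868 to 3.42 ± 0.844, and 2 of 4 Tsc2 mut/mut mice, with means from 2.05 ± 0.327 to 1.69 ± 0.678. Gm10801 fell by 0.87 (SE 0.27, adjusted p = 0.00803) and Olfr287 by 0.65 (SE 0.19, adjusted p = 0.00517) on the fitted log2 scale. These falls are relative to the typical gene. In CPM Olfr287 was at 3.01 ± 2.55 in nuclei and 3.13 ± 2.57 in low-count barcodes, lower in 5 of 8 mice, and the direction of Gm10801 was lower in 5 mice, higher in 2 and equal in 1. Olah, at -0.55 (SE 0.45, adjusted p = 0.289), did not pass. Gm45890 did not pass either, at -0.14 (SE 0.39, adjusted p = 0.764), and its sign turned to 0.57 in CPM. By genotype, Gm45890 was higher in nuclei in 4 of 4 Tsc2 wt/wt mice, at 1.62 ± 1.04 against 0.161 ± 0.114 CPM in low-count barcodes. In Tsc2 mut/mut mice it was at 2.02 ± 0.660 against 2.28 ± 1.12, higher in 2 mice and lower in 2. This split by genotype was not tested.

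Nuclei in these data are a mixture, so barcodes with under 20% mitochondrial UMIs (nucleus-like, 3470 barcodes) were set against those with 30% or more (mitochondria-rich, 33406 barcodes) within mice. Here 79.6% of 10687 genes passed, and Tmem117 was the only one of the 7 with enough UMIs in both classes for the filtered test. Relative to the typical gene, whose median was 1.52 (log2) in CPM and -0.13 after TMM, it was higher in nucleus-like barcodes by 3.83 on the log2 scale (SE 0.27, adjusted p = 1.49e-07), in 8 of 8 mice. Its level was 73.1 ± 44.3 against 1.64 ± 1.28 CPM (n = 8).

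With no filter on low counts, 53% of 23748 genes passed, among them Tmem117, Mmel1 and Olfr287. Mmel1 was lower in nucleus-like barcodes by 4.46 on the log2 scale (SE 0.48, edgeR adjusted p = 3.75e-09), in 8 of 8 mice, and it was at 0 in nucleus-like barcodes of 5 mice. Its level was 0.430 ± 0.777 against 3.36 ± 1.56 CPM (n = 8). Olfr287 fell by 2.45 (SE 0.37, edgeR adjusted p = 1.43e-06) relative to the typical gene and was lower in 7 of 8 mice. In CPM its fall was smaller, at 2.05 ± 2.23 against 3.29 ± 2.75 (n = 8), a log2 ratio of the means of -0.68. Gm45890, Olah, Gm10801 and Gm10800 did not pass in that fit. Their adjusted p ranged from 0.34 for Gm45890 to 0.824 for Olah.

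The genotype levels in both kinds of barcode are a description, for the reason given above. Gm45890, Gm10801 and Tmem117 had groups that overlapped in nucleus-like barcodes and not in mitochondria-rich ones, while Olah and Gm10800 overlapped in both. For Tmem117 the overlap came from Tsc2 mut/mut mouse 4, at 20.9 CPM in nucleus-like barcodes. The other Tsc2 mut/mut mice were at 106 to 139 and Tsc2 wt/wt mice at 33.4 to 67.9. In that mouse nucleus-like barcodes held 958251 UMIs, and choroid plexus-like nuclei, a class from the clusters below, held 925125. That class had 2 Tmem117, 1 Olfr287, 0 Olah and 6 Gm45890 UMIs over all mice. Its part in the values of that mouse was not tested. In nucleus-like barcodes Gm45890 was at 9.11, 3.74, 5.87 and 4.48 CPM in Tsc2 wt/wt mice 1 to 4 and 2.22, 4.34, 5.37 and 1.04 in Tsc2 mut/mut mice 1 to 4. In mitochondria-rich barcodes it was at 0, 0, 0 and 0.247 against 2.42, 1.83, 1.32 and 1.06. The groups overlapped in the first kind and were apart in the second, as they were in low-count barcodes. Olah showed 5.31, 2.81, 7.34 and 2.98 against 6.67, 10.9, 3.02 and 0 in nucleus-like barcodes, and 0.843, 3.26, 3.71 and 1.24 against 0.660, 0.457, 1.44 and 1.06 in mitochondria-rich ones, with overlap in both.

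Of the 11007 genes tested in nucleus-like barcodes, a set with only 1 of the 7, 1.95% had groups that did not overlap. Olfr287 was the only gene of the 7 whose groups did not overlap in these barcodes. It was at 5.31, 4.21, 4.41 and 1.49 CPM in Tsc2 wt/wt mice and 0, 0, 1.01 and 0 in Tsc2 mut/mut mice. In mitochondria-rich barcodes 5 of the 7 genes were without overlap (Gm45890, Gm10801, Tmem117, Olfr287 and Mmel1). The share was 5.5% of the 10255 genes tested there, a set with only 2 of the 7. Mmel1 was at 5.06, 5.81, 3.71 and 3.95 CPM there in Tsc2 wt/wt mice and 1.32, 2.51, 2.64 and 1.85 in Tsc2 mut/mut mice. In nucleus-like barcodes Mmel1 gave too little to compare, with 0 in 3 control mice and 2 Tsc2 mut/mut mice. The part that free RNA played in these differences was not tested.

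**Figure D3:**
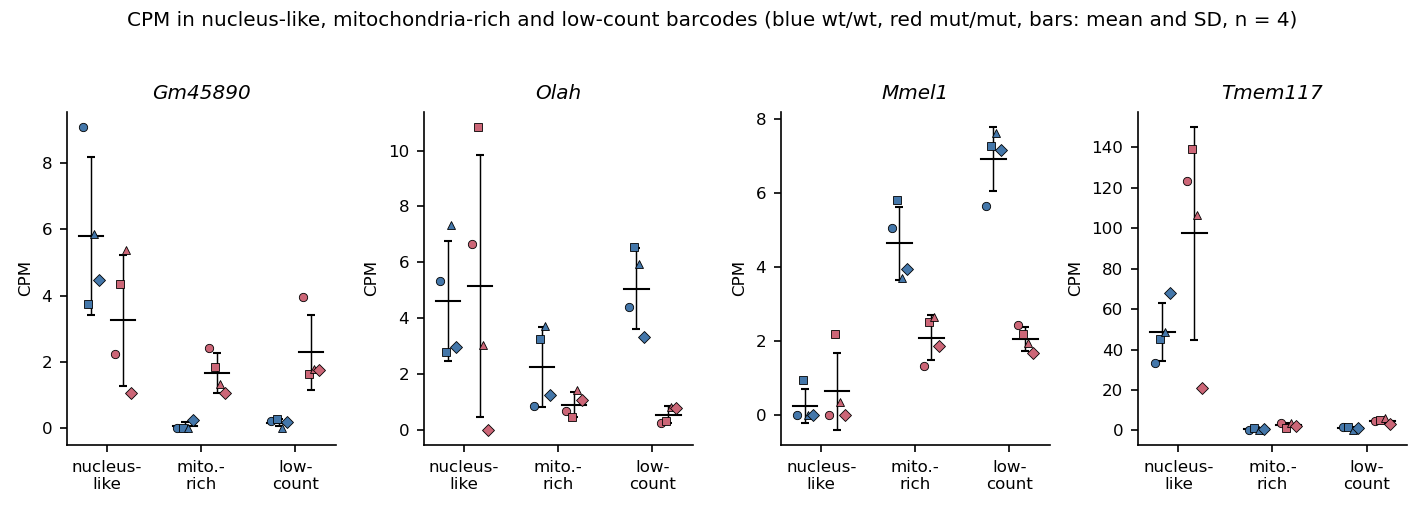
Gm45890, Olah, Mmel1 and Tmem117 in CPM (y axis, linear) in nucleus-like, mitochondria-rich and low-count barcodes (x axis), with points for mice and bars for the mean and SD of 4 mice per genotype. Gm45890 is near 0 in Tsc2 wt/wt mice in the last 2 kinds only, and Tmem117 is high in nucleus-like barcodes of both genotypes.

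Clusters of the 37881 nuclei, made without the 7 genes, were named from marker genes, and 7 kinds of nuclei with low mitochondrial content plus a mitochondria-rich NSC/astrocyte-like cluster received names. The remaining 24561 barcodes stayed unnamed, and their clusters were 48.3% to 50.1% mitochondrial. Levels by class are sums per mouse, given for mice with at least 10 barcodes of the class, and they are descriptions. The share of all genes without overlap was not found for any cell class. Separation of the groups within a class therefore carries no weight of its own.

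Tmem117 was most abundant in oligodendrocyte-like nuclei, the class of the myelin-forming glia. That class, which carried all 12 listed oligodendrocyte markers at raised levels, gave 732 of the 1156 Tmem117 UMIs in nuclei, 63.3%, while it held 3.27% of all UMIs. Tmem117 was at 325, 173, 197 and 356 CPM in oligodendrocyte-like nuclei of Tsc2 wt/wt mice 1 to 4 and at 737, 601, 508 and 514 in Tsc2 mut/mut mice 1 to 4. The groups did not overlap within this class, and Tsc2 mut/mut mouse 4 was with its group, unlike in the sum over nuclei. The means were 263 ± 91.2 and 590 ± 107 (n = 4 each). In NSC/astrocyte-like nuclei Tmem117 was at 14.5, 22.8, 5.43 and 5.52 against 43.5, 82.9, 60.3 and 55.9, also without overlap, though from 37 and 147 UMIs. The value of Tsc2 mut/mut mouse 4 came from only 29 such nuclei, with 35766 UMIs of all genes.

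Tmem117 was present at 83.5 ± 33.0 CPM (n = 7) in ependymal-like nuclei and at 89.0 ± 72.5 (n = 7) in neuroblast or inhibitory neuron-like nuclei, a class in which oligodendrocyte progenitor markers were raised too. In ependymal-like nuclei the genotypes overlapped, at 75.3 ± 25.0 (n = 3) in Tsc2 wt/wt mice and 89.8 ± 40.5 (n = 4) in Tsc2 mut/mut mice. The order of the class means of Tmem117 was oligodendrocyte-like, then neuroblast or inhibitory neuron-like and ependymal-like, which do not differ beyond their spread, then NSC/astrocyte-like at 36.4 ± 28.6 (n = 8). Choroid plexus-like and microglia-like nuclei had 2 Tmem117 UMIs each. Nuclei that held any Tmem117 held 1.96 UMIs of it on average, against 1.03 in low-count barcodes.

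Olah was most abundant in ependymal-like nuclei. Ependymal cells are the ciliated cells that line the ventricle, and their class held 46 of the 120 Olah UMIs, 38.3%, with 1.76% of all UMIs and all 12 ependymal markers raised. Olah stood at 47.6, 8.75 and 59.4 CPM in ependymal-like nuclei of Tsc2 wt/wt mice 1 to 3 and at 67.7, 67.4, 38.5 and 0 in Tsc2 mut/mut mice 1 to 4. The Tsc2 wt/wt mouse 4 library had only 7 such nuclei, with 3 UMIs. The 0 of Tsc2 mut/mut mouse 4 came from 15 nuclei with 12103 UMIs in all and allows an Olah level of up to 248 CPM. Here the genotypes did not separate, at 38.6 ± 26.5 (n = 3) and 43.4 ± 32.0 (n = 4). In the unnamed classes Olah was at 1.39, 4.38, 4.03 and 1.28 in Tsc2 wt/wt mice and 0.595, 0.713, 1.52 and 1.07 in Tsc2 mut/mut mice, and the groups overlapped there too.

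Gm45890 also had its largest share of UMIs among named classes in ependymal-like nuclei, 21 of 94 UMIs or 22.3%. It was at 47.6, 17.5 and 23.7 CPM there in Tsc2 wt/wt mice 1 to 3 and at 18.1, 16.9, 16.5 and 0 in Tsc2 mut/mut mice 1 to 4. The 0 in Tsc2 mut/mut mouse 4 again allows up to 248 CPM of Gm45890. These groups overlapped, and the mean was higher in Tsc2 wt/wt mice, the reverse of the order in low-count barcodes. In the unnamed classes Gm45890 had 0 UMIs in all 4 Tsc2 wt/wt mice, which allows up to 0.284 CPM over the group, and 2.38, 1.43, 1.01 and 1.42 CPM in Tsc2 mut/mut mice, from 22 UMIs. Microglia-like nuclei held 9 Gm45890 UMIs, 5 in Tsc2 wt/wt mice and 4 in Tsc2 mut/mut mice.

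**Figure D4:**
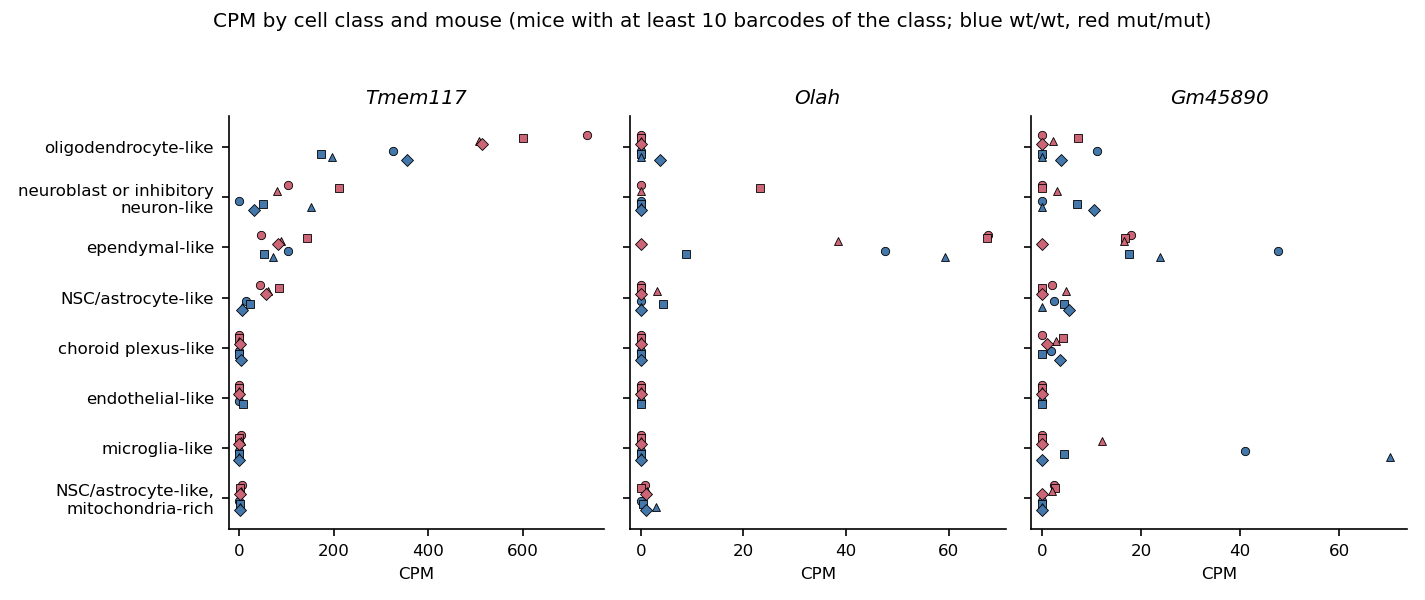
Tmem117, Olah and Gm45890 in CPM (x axis, linear, a scale per panel) by cell class (y axis), with 1 point per mouse that has at least 10 barcodes of the class. Tmem117 is highest in oligodendrocyte-like nuclei, with Tsc2 mut/mut mice at 508 to 737 and Tsc2 wt/wt mice at 173 to 356, and Olah is raised in ependymal-like nuclei of both genotypes.

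Olfr287 and Mmel1 had no such class. Olfr287 was found in NSC/astrocyte-like nuclei, at 8.72 ± 5.51 CPM in Tsc2 wt/wt mice and 0.603 ± 1.21 in Tsc2 mut/mut mice (n = 4 each), in mitochondria-rich NSC/astrocyte-like barcodes, at 6.32 ± 2.09 and 1.57 ± 1.45, and in the unnamed classes, at 5.55 ± 0.951 and 0.761 ± 1.52. All 18 Tsc2 mut/mut UMIs of Olfr287 in the unnamed classes came from mouse 3. Olfr287 had 0 UMIs in ependymal-like nuclei, which allows up to 8.12 CPM over the Tsc2 wt/wt mice, above their mean in nuclei as a whole, so a lower level there was not detectable at this depth. Mmel1 gave 89 of its 133 UMIs in the unnamed classes and 36 in mitochondria-rich NSC/astrocyte-like barcodes, where these barcodes held 49.5% and 23.9% of all UMIs. In ependymal-like, choroid plexus-like and endothelial-like nuclei Mmel1 had 0 UMIs. For ependymal-like nuclei of Tsc2 wt/wt mice this again allows up to 8.12 CPM, above the mean of 3.42 for Mmel1 in their nuclei as a whole. Endothelial-like nuclei held still fewer UMIs, 1.01% of all beside 1.76%, so absence of Mmel1 from these classes is not shown.

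Gm10801 and Gm10800 were spread thinly, with 67 and 51 UMIs over all nuclei. In the unnamed classes Gm10801 had 30 UMIs, all from Tsc2 mut/mut mice, at 1.19, 0.713, 2.37 and 3.55 CPM in mice 1 to 4. Gm10800 had 22 UMIs there, 2 of them from Tsc2 wt/wt mice. In microglia-like nuclei Gm10800 had 7 UMIs, all from Tsc2 mut/mut mice and 5 from mouse 2. Endothelial-like nuclei held 6 of the 51 Gm10800 UMIs, 11.8%, and 5 of the 67 Gm10801 UMIs, 7.46%, with 1.01% of all UMIs. Of these, 4 and 2 came from Tsc2 wt/wt mouse 4, which had 7 such nuclei.

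Genes around the 7 were examined next. Within 1 Mb, 112 other genes could be tested in low-count barcodes. By edgeR 0 of them passed at an adjusted p under 0.05, where 0.227% of all genes did, and 0 passed by DESeq2. At an unadjusted p under 0.05 there were 11, or 9.82% of the neighbours beside 7.72% of all genes, and 8, or 7.14%, had groups without overlap beside 5.72% of all genes. Their fitted log2 differences ran from -1.32 for Pusl1, near Mmel1, to 1.11 for Meig1, near Olah, around a median of 0.00. In nuclei 127 neighbours were tested and 0 passed by edgeR. There 4 had an unadjusted p under 0.05 and 5 had groups without overlap, 3.15% and 3.94% beside 2.58% and 2.16% of all genes. They were not spread evenly: the 29 around Olfr287 gave 2 and 3, and the 39 around Gm45890 gave 2 and 2. Neighbours of Olah, Tmem117 and Mmel1 gave 0. In low-count barcodes the 25 around Olfr287 gave 4 and 2.

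Gm10801 and Gm10800 lie in a region with no other tested gene within 1 Mb, and the 21 genes tested within 5 Mb had a median log2 difference of -0.06 in low-count barcodes. Tmem117 and Olfr287, on the same chromosome, had opposite directions, and the 66 and 95 tested genes within 5 Mb of them had medians of 0.01 each. Nell2, which overlaps the end of Tmem117 on the other strand by 20869 bases, was at 16.6 ± 2.42 and 16 ± 2.50 CPM in the low-count barcodes of control and Tsc2 mut/mut mice (n = 4 each). Fam213b, which overlaps Mmel1 by 25 bases, was at 168 ± 23.0 and 140 ± 16.8.

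**Figure D5:**
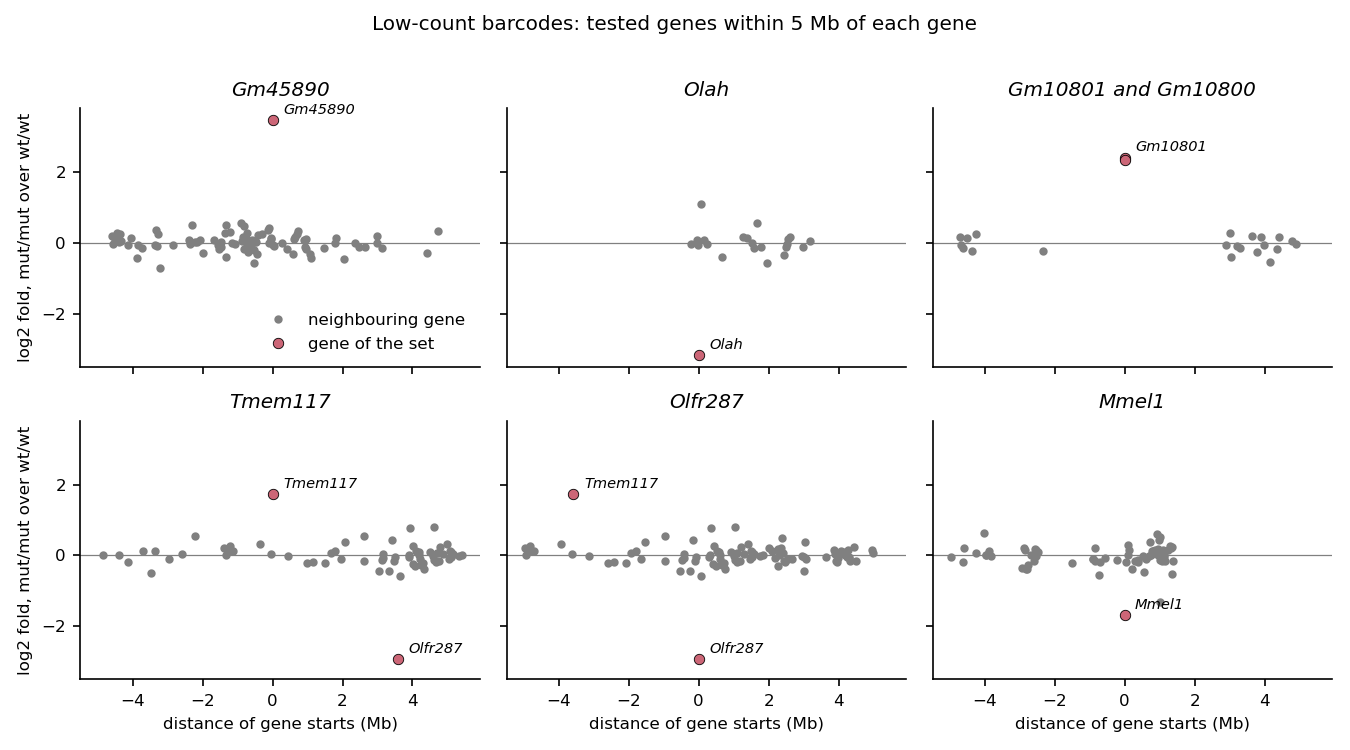
Fitted log2 difference in low-count barcodes, Tsc2 mut/mut over Tsc2 wt/wt (y axis), against the distance between gene starts in Mb (x axis) for tested genes within 5 Mb of each gene. Red points are genes of the set, grey points their neighbours, which lie between -1.32 and 1.11 while the 7 genes lie at -1.69 or below or at 1.74 or above.

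The genes most like each of the 7 over the 8 mice in low-count barcodes, by Pearson correlation of log2(CPM + 1), are given as a description. The 8 points fall into 2 genotype groups and share the libraries, so r mostly carries the difference between the groups. For Mmel1 the top 3 were H2-T22 (r = 0.989), Gfer (r = 0.986) and Rnaset2b (r = 0.978), all on chromosome 17. Rnaset2b also led for Olah (r = 0.981), followed by Masp1 and Ramac, and Tax1bp1 (r = 0.992), Pkm and Txndc5 were nearest to Olfr287. For Gm45890 they were Arl8b (r = 0.954), Snhg11 and Bricd5, for Tmem117 Ndrg4 (r = 0.972), Dvl3 and Snhg11, for Gm10801 Polr2k (r = 0.977), Hif1a and Snrnp200, and for Gm10800 Smndc1 (r = 0.974), Fubp3 and Snrnp200. Of these 21 pairs, 0 were again among the top 3 in nuclei or over all barcodes.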

How the data were processed

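The authors deposited counts of UMIs per gene and barcode, made with Cell Ranger 7.0.1 on GRCm38 with the number of barcodes forced to 60000 per library, with no normalization. The sort gated out doublets, and no doublet caller was run here. The 7 genes, the gene lists and the markers were chosen with earlier results of these data known.

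UMIs were summed per mouse over classes of barcodes by genes detected (at least 100 and under 200, low-count; at least 300, nuclei) and by mitochondrial share (under 20%; 30% or more), and were scaled to CPM. Genes were tested with edgeR 4.0.16 in R 4.3.3 (quasi-likelihood, TMM, filterByExpr, Benjamini-Hochberg over all genes tested, threshold 0.05) by genotype, or between classes with the mouse as a block. DESeq2 1.42.0 was an alternative. The mice are the replicates. On simulated counts of 11880 genes, 74% of genes changed 2-fold between genotypes in low-count barcodes were recovered, and 20% of those in nuclei, with 13060 genes.

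Nuclei were clustered in scanpy 1.11.5 (leidenalg 0.10.2, 2000 variable genes, 30 components, resolution 0.8), leaving out the 7 genes, and named where at least 3 markers were raised 1.5-fold. Positions and transcripts came from GENCODE M21. Named besides the 7 are, by rule, the 3 genes most correlated with each, neighbours and list genes that passed, and Tsc2. Others (Ramac, Gm11681, Pusl1, Meig1, Olfr482, Olfr57, Olfr286, Olfr288, Olfr1124, Acot1, overlapping genes and tested list genes) were named after their values were seen.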

Additional observations from a re-analysis of the deposited data

Results flagged for a closer look

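In 56 groups of 4 mice, 14 held a value far from the other 3 by Dixon's criterion. Its rate of 1 in 20, or 2.8 groups, holds for independent normal values. These are low counts, in some groups with the other 3 mice at 0, and the classes share barcodes. The number flagged is therefore not weighed against that rate. In low-count barcodes these were Gm45890 in Tsc2 mut/mut mouse 1, at 3.96 CPM, and Tsc2 mut/mut mouse 4 for Gm10801, at 3.92, and Gm10800, at 3.63. In nuclei they were Gm45890 in Tsc2 wt/wt mouse 1, at 3.17, and Tsc2 mut/mut mouse 4, at 1.04, Olfr287 in Tsc2 mut/mut mouse 3, at 2.75, and Mmel1 in Tsc2 wt/wt mouse 2, at 4.68.

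In nucleus-like barcodes, Olfr287 in Tsc2 mut/mut mouse 3 stood at 1.01, and Mmel1 at 0.935 in Tsc2 wt/wt mouse 2 and at 2.17 in Tsc2 mut/mut mouse 2, all from groups otherwise at or near 0. In mitochondria-rich barcodes, the values were 3.36 for Olfr287 in Tsc2 mut/mut mouse 3, 0.247 for Gm45890 in Tsc2 wt/wt mouse 4, 0.422 for Gm10801 and 0.843 for Gm10800 in Tsc2 wt/wt mouse 1. For the last 3 of these values the other mice of the group were at 0. Olfr287 in Tsc2 mut/mut mouse 3 was the only gene and mouse marked in each of the 3 kinds of barcode with at least 300 genes. Nuclei include the nucleus-like and mitochondria-rich barcodes.

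Olah differed in opposite directions between low-count barcodes and nuclei. Nuclei minus low-count barcodes averaged -2.21 CPM in Tsc2 wt/wt mice and 1.35 in Tsc2 mut/mut mice, with the same sign in 4 of 4 mice each, a difference of 3.56. The smallest change in Tsc2 mut/mut mice was only 0.0317 CPM, in mouse 4. In CPM the median gene was also 0.64 higher (log2) in nuclei. The difference of 3.56 was not tested, since the low-count levels chose the gene.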

How the results depend on the processing

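The number of genes that passed between genotypes in low-count barcodes, 27, became 110 with no filter on low counts, 7 in barcodes with fewer than 100 genes (3 Tsc2 wt/wt mice and 1 Tsc2 mut/mut mouse, so that mouse and genotype cannot be told apart) and 17 to 44 when 1 mouse was left out. In nuclei, 2 became 7 by DESeq2, 0 with at least 500 genes and 0 to 3 with 1 mouse left out. Groups without overlap, 7 genes in low-count barcodes, numbered 4 from 200 to under 300 genes (4.73% of genes tested) and 4 at 200 genes or more (6.38%). They numbered 4 in nuclei, 2 at 500 genes or more (1.43%) and 1 in nucleus-like barcodes. Leaving out a mouse cannot make separate groups overlap, so the low-count number stays at 7 by construction and shows nothing about stability. Between nuclei and low-count barcodes 4 genes passed, 2 with nuclei of at least 500 genes (78% of all genes) and 3 to 4 with a mouse left out. Between nucleus-like and mitochondria-rich barcodes 1 passed, 3 with no filter, 2 in Tsc2 wt/wt mice alone (78.5% of all genes; chosen after seeing the data) and 1 to 2 with a mouse left out. Neighbours within 1 Mb numbered 0 at the adjusted threshold, 11 and 8 in low-count barcodes and 4 and 5 in nuclei by an unadjusted p and by overlap. Correlated genes recurred in 0 cases in nuclei and 0 over all barcodes.

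Signs turned for Gm45890 between nuclei and low-count barcodes by DESeq2 (0.26). The log2 genotype ratio turned at 500 genes or more for Gm45890 (-0.19) and Olah (0.058), and in nucleus-like barcodes for Gm45890 (-0.84), Olah (0.16) and Mmel1 (1.42, from 5 mice at 0). Between nuclei and low-count barcodes Olfr287 no longer passed with at least 200 genes (-0.35), and Olah passed with no filter (-0.55), in Tsc2 wt/wt mice alone (-1.53) and against barcodes under 100 genes (-1.54). The causes were not tested.

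Replicate numbers did not pair the mice: same-numbered deviations correlated at -0.102 to 0.0593 in nuclei and -0.106 to -0.0629 in low-count barcodes. With the replicate block, 0 genes passed in nuclei and 35 in low-count barcodes.

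Depth limits the low values: 1 UMI in low-count barcodes of Tsc2 wt/wt mouse 3 is 0.424 CPM.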
